A study of Mus musculus with 4 samples.

Results

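Natural killer (NK) cells in single-cell data of LLC tumors were chosen by the UMI counts of single barcodes, as barcodes that carried NK receptor transcripts and lacked the marker transcripts of T cells, macrophages and tumor cells. A kept barcode had at least 200 detected genes and at most 20% of its unique molecular identifiers (UMIs, each standing for 1 captured mRNA molecule) on mitochondrial genes. It was called an NK cell when Ncr1, Klrb1c, Klra8 and Klre1 together had at least 2 UMIs, Cd3e, Cd3d and Cd3g together had 0, Csf1r had 0 and Rhox5 had at most 1. Klra4 was not used. This rule found 428 NK cells among 55058 kept barcodes of 4 libraries, 62 of 9976 in the control library and 128 of 15029, 149 of 14993 and 89 of 15060 in the radiotherapy libraries.

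LLC is the Lewis lung carcinoma cell line, and it was grown under the skin of C57BL/6N mice (C57/BL6N in the labels) aged 6 to 8 weeks. The control library, NT, pooled 3 mock-treated tumors, so the spread between control tumors cannot be seen. The libraries RT1, RT2 and RT3 each came from 1 tumor given hypofractionated radiotherapy of 24 Gy in 3 fractions of 8 Gy, and all tumors were taken at 72 h after radiation. All mice carried the same tumor line, the groups differed by radiation alone according to the labels, and no genetic change of the host was described. The deposited tables held 69667759 UMIs for NT, 78585759 for RT1, 108699844 for RT2 and 85660188 for RT3. The table of RT2 stood apart, since it listed 18605 genes by symbol only, against 32285 in the others, and no barcode in it exceeded 11.95% mitochondrial UMIs. Values of RT1 and RT3 are therefore given beside those of RT2 throughout, and only the 18605 genes common to all tables were read. Pairs of libraries shared 175 to 274 of their kept barcode sequences, and no NK barcode was shared between any pair.

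NK cells are innate lymphocytes that kill stressed or transformed cells without prior priming. Activating receptors such as NKp46 (Ncr1) and NKG2D (Klrk1) are weighed against inhibitory receptors such as the Ly49 (Klra) and CD94/NKG2A (Klrd1, Klrc1) families, which read MHC class I on the target. An engaged cell releases perforin and granzymes from its granules and secretes interferon gamma and chemokines. In mouse NK cells, granzyme A and granzyme B are abundant, and the gene cluster that holds granzyme B also holds granzymes C to G.

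The NK cells were shallow. Their median was 1734 UMIs in NT, 1971 in RT1, 2993 in RT2 and 2448 in RT3, with 897.5, 1024.5, 1354 and 1111 median detected genes. Summed over all NK cells, the libraries held 181407, 321364, 656676 and 332115 NK UMIs, so NT was the library with the least material. A small number of deep barcodes carried much of it. The deepest 8% of NK barcodes, 5 in NT and 11, 12 and 8 in the RT libraries, held 33.5% of the NK UMIs in NT, 25% in RT1, 25.7% in RT2 and 26.8% in RT3. Values without these barcodes, or with each barcode weighted equally, are given beside many of the results for which they change the direction or the call.

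Levels are given as CPM, the UMIs of a gene per 1000000 UMIs summed over the NK cells of a library, and are compared between libraries, not between genes. The 4 gate genes were present by construction, with Ncr1 at 491, 601, 382 and 367 CPM in NT, RT1, RT2 and RT3. Among markers the gate did not use, Gzma, a granule protease, stood at 6593, 8636, 9228 and 5721 CPM in NK cells. In T cells (at least 2 UMIs of the 3 Cd3 genes and none of the NK gate genes, 342 barcodes) Gzma reached 133 CPM at most, in macrophages (at least 2 Csf1r UMIs, 5695 barcodes) 1.95, and in tumor cells (at least 3 Rhox5 UMIs, no Ptprc, 27326 barcodes) 1.55. Eomes, the T-box factor that marks conventional NK cells, stood at 221, 327, 253 and 229 CPM against 37.2, 65.4, 76.1 and 66.6 in T cells. Prf1, perforin, stood at 2178, 1596, 1451 and 1789 CPM, and T cells held 306, 861, 674 and 618. Klra4, the Ly49 gene kept out of the gate, stood at 342, 753, 338 and 256 CPM in NK cells and at 44.5, 42.9, 28.4 and 58.1 in tumor cells. Markers outside the rule thus lay above the populations they are set beside in all 4 libraries.

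Markers of group 2 and group 3 innate lymphoid cells were low, and T cell genes were lower than in T cells. Of 4 genes of group 3 innate lymphoid cells found in the tables, Il22 and Il23r were at 0 in all 4 libraries, and the list summed to 16.5, 0, 4.57 and 9.03 CPM. Of 5 genes of group 2 innate lymphoid cells, Il5 and Il13 were at 0, the sums were 176, 99.6, 94.4 and 66.2 CPM, and Gata3, which NK cells also express, was the most abundant. Il7r, absent from most conventional NK cells, stood at 5.51, 0, 3.05 and 6.02 CPM, and Cd200r1, a type 1 innate lymphoid cell marker, at 0, 0, 1.52 and 3.01. Itga1 (CD49a), which tissue-resident cells carry, differed between libraries at 105 CPM in NT and 12.4, 22.8 and 9.03 in RT. The list of tissue residency and type 1 innate lymphoid cell genes, 14 of them in the tables, was not low as a whole. It summed to 6654, 7578, 7069 and 5101 CPM. Whether type 1 innate lymphoid cells were among the NK barcodes was not tested. The 12 T cell genes summed to 1268, 899, 914 and 1108 CPM, led by Trbc1, a gene that NK cells also transcribe, while Cd4, Cd5, Cd6 and Themis were at 0 in all libraries. The same list summed to 5846, 5611, 6222 and 5383 CPM in T cells.

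Dendritic cell and macrophage transcripts were higher in NT. The 8 dendritic cell genes summed to 1632 CPM in NT and 93.4, 222 and 93.3 in RT, with H2-Aa the most abundant and Cd209a and Siglech at 0. The 10 macrophage and monocyte genes, led by Lyz2, summed to 579 CPM in NT and 230, 349 and 120 in RT. At least 3 UMIs of these lists were found in 8 NK barcodes of NT and in 10, 25 and 8 of RT1, RT2 and RT3. Neutrophil genes (6, led by S100a8) summed to 0, 18.7, 129 and 9.03 CPM, fibroblast genes (5, led by Col3a1) to 22.1, 96.5, 74.6 and 78.3, endothelial genes (4, led by Pecam1, with Cdh5 and Kdr at 0) to 88.2, 149, 142 and 114, and tumor genes, led by Rhox5, to 105, 103, 70.0 and 84.3, of which the rule itself caps Rhox5. B cell genes, led by Ighm with Cd79b at 0, summed to 77.2, 59.1, 41.1 and 33.1 CPM, and mast cell and basophil genes, led by Mcpt8 with Fcer1a, Ms4a2 and Gata2 at 0, to 38.6, 18.7, 146 and 87.3. Erythrocyte and platelet genes, led by Pf4 with Hba-a1, Hbb-bs and Ppbp at 0, summed to 0, 9.34, 6.09 and 3.01 CPM.

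The edge of the gate was gradual. Barcodes that met all other conditions with a gate sum of exactly 1 UMI, just outside, numbered 22, 36, 43 and 39, and those with exactly 2 UMIs, just inside, 18, 29, 26 and 27. Gzma stood at 393, 6045, 1690 and 2261 CPM just outside and at 3358, 7247, 5894 and 3971 just inside, and cells with 3 or more UMIs had 7154, 8834, 9456 and 5984. Gzma was thus also found in barcodes just outside the rule, least in NT.

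How common NK cells were depended on what they were counted against. Of all kept barcodes they made up 0.621% in NT (95% Clopper-Pearson interval 0.477 to 0.796), 0.852% in RT1 (0.711 to 1.01), 0.994% in RT2 (0.841 to 1.17) and 0.591% in RT3 (0.475 to 0.727). NT lay within the range of the RT libraries. When the gate was read after thinning each barcode to 2000 UMIs, NT had 0.240% (0.144 to 0.374). RT1 then had 0.565%, RT2 0.779% and RT3 0.364% (0.258 to 0.499). NT thus lay below every RT library at that depth, and its interval overlapped that of RT3. Intervals cover counting error only, and with 1 NT library no test between NT and RT could be made.

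Among barcodes with a Ptprc (CD45) UMI and at most 1 Rhox5 UMI, NK cells made up 6.33% in NT (4.83 to 8.13), 4.42% in RT1 (3.64 to 5.30), 4.29% in RT2 (3.58 to 5.09) and 5.17% in RT3 (4.10 to 6.42), with an RT mean of 4.62% ± 0.475 (SD, n = 3). The gate needs UMIs, so depth bears on it. When the gate was read after thinning each barcode to 2000 UMIs, NT had 4.63% and the RT libraries averaged 4.72% ± 0.390 (SD, n = 3), a difference smaller than the SD between the RT libraries.

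Within lymphocytes the share of NK cells was lower in NT. NK cells were 39.2% of NK and T cells together in NT (31.6 to 47.3), and 68.8% (61.6 to 75.4), 50.9% (45.0 to 56.7) and 66.9% (58.2 to 74.8) in the RT libraries, with a mean of 62.2% ± 9.87 (SD, n = 3). All 3 RT libraries were above NT, and the interval of RT2 came closest to that of NT and overlapped it. The T cell counts behind this share were 96, 58, 144 and 44.

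**Figure D1:**
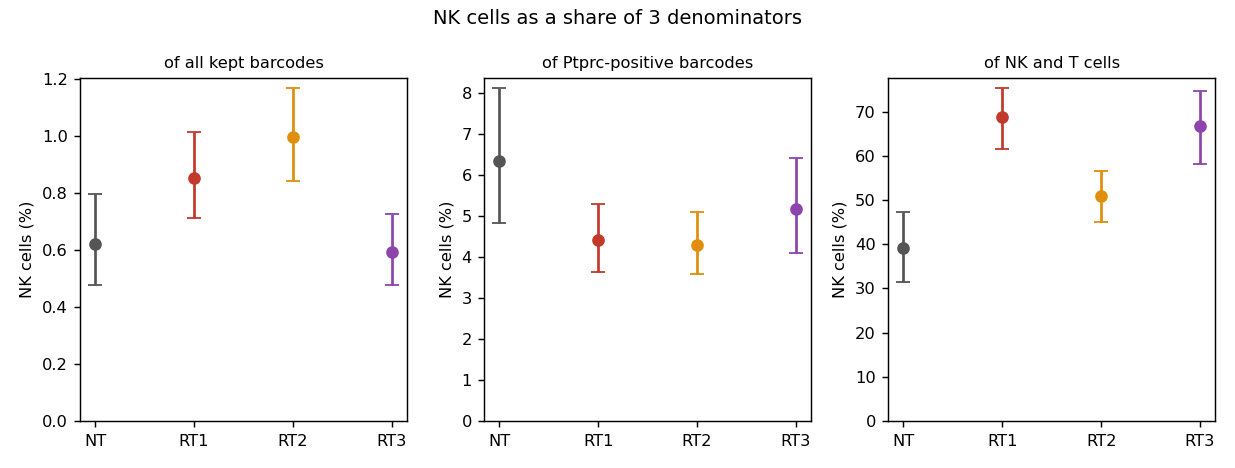
NK cells as a percentage of all kept barcodes, of Ptprc barcodes and of NK and T cells together (y axes, percent) in NT, RT1, RT2 and RT3 (x axes), with exact Clopper-Pearson 95% intervals as bars. NT lies within the RT range in the first panel, above all RT libraries in the second (6.33% against 4.29 to 5.17%) and below them in the third (39.2% against 50.9 to 68.8%). With the gate read after thinning to 2000 UMIs, NT is below all RT libraries in the first measure (0.240% against 0.364 to 0.779%). It is then within their range in the second (4.63% against 4.34 to 5.12%).

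Granzymes C to G were unevenly spread over the cells. They lie with Gzmb in 1 cluster on chromosome 14, and their promoters are shown because the 5 genes were counted together and because the cells that held them are compared with the others below. The sequences are the 250 bases before the transcription start (RefSeq, build GRCm38.p6, minus strand, written 5′ to 3′ as transcribed). They lie at chr14:56262335-56262584 for Gzmb, chr14:56234658-56234907 for Gzmc, chr14:56132594-56132843 for Gzmd and chr14:56159580-56159829 for Gzmg. Capitals mark matches to TGTGGT or its reverse complement ACCACA, the letters bound by RUNX factors.
Gzmb: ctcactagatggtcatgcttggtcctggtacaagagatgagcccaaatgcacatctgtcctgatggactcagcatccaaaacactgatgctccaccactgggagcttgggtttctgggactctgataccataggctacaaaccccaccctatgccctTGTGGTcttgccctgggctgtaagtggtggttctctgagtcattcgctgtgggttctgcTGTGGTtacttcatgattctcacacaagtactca
Gzmc: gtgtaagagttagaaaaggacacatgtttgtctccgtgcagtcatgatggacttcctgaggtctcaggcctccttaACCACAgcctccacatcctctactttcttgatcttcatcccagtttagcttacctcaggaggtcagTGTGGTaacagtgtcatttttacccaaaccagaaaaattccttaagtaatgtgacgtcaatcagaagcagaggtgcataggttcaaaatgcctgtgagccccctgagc
Gzmd: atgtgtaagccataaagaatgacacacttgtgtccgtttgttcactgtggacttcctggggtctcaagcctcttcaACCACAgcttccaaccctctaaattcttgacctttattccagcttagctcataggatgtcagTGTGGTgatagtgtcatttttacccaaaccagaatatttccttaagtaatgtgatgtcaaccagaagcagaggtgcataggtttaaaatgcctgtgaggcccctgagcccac
Gzmg: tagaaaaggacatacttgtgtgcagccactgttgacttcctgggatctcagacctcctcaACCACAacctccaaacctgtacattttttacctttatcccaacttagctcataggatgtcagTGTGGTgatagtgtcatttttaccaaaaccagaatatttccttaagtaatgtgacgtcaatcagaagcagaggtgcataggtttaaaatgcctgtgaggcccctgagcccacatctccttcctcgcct

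Each of the 4 promoters, and those of Gzme and Gzmf, held 2 such matches. These started 93 and 34 bases before the transcription start in Gzmb, 174 and 108 in Gzmc, 174 and 112 in Gzmd and 190 and 128 in Gzmg. Of 32851 mouse promoters of 300 bases (250 before to 50 after the start), 16.8% held at least 1 match. The T-box letters TCACACC were in none of the 6 windows (3.98% of all promoters), AGGAAG, an ETS core, was in Gzmc to Gzmg (35.4%), and the AP-1 letters TGANTCA were in Gzmb alone of the 6 (7.81%). Motifs were searched on both strands. Over the aligned bases, the 10 pairs among Gzmc to Gzmg were 84.4 to 95.6% identical. Matches are descriptions of letters and were not tested as binding sites. The 3′ ends of the transcripts, which the assay reads, were partly shared too. Of the 60-base windows in the last 500 bases, 13.6% of those of Gzmd, 10.9% of Gzme, 4.99% of Gzmf and 2.95% of Gzmg also occurred in another granzyme, so that the split between these 4 genes is uncertain. None did for Gzma, Gzmb and Gzmc.

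Fewer NK cells of NT than of RT held a Gzmc to Gzmg UMI, yet those that did held many. After each cell was thinned to 1000 UMIs, 25 of 52 cells of NT (48.1%, 34.0 to 62.4) had at least 1 UMI of the 5 genes, against 86 of 102 in RT1 (84.3%, 75.8 to 90.8), 94 of 139 in RT2 (67.6%, 59.2 to 75.3) and 70 of 80 in RT3 (87.5%, 78.2 to 93.8). The 10, 26, 10 and 9 shallower cells were left out, and without thinning the shares were 48.4%, 78.9%, 70.5% and 86.5%. At 2000 UMIs the shares came to 79.2% (57.8 to 92.9), 93.8% (84.8 to 98.3), 81.4% (72.3 to 88.6) and 94.2% (84.1 to 98.8), and the interval of NT overlapped those of all 3 RT libraries, whereas at 1000 UMIs it overlapped that of RT2 alone. In cell types that should lack these transcripts the shares were low. Macrophages at 1000 UMIs had 0%, 0.212%, 0.819% and 0.781%, and a sample of tumor cells 0.10%, 0.10%, 0.201% and 0.403%. T cells had 6.58%, 29.7%, 22% and 55.9%.

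The summed level ran the other way for RT1 and RT2. The 5 genes took 2.5% of all NK UMIs in NT, 1.52% in RT1, 1.73% in RT2 and 2.74% in RT3. In the median cell they took 0%, 0.372%, 0.310% and 0.779%, and in the highest cell 7.77%, 11.1%, 8.87% and 12.6%. In NT, 7 cells held 91.8% of the Gzmc to Gzmg UMIs, whereas the corresponding top 10% of cells (13, 15 and 9) held 67.1%, 72.7% and 65.1% in RT1, RT2 and RT3. The share of cells and the summed level thus order NT differently, and no order between NT and RT is read from them.

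**Figure D2:**
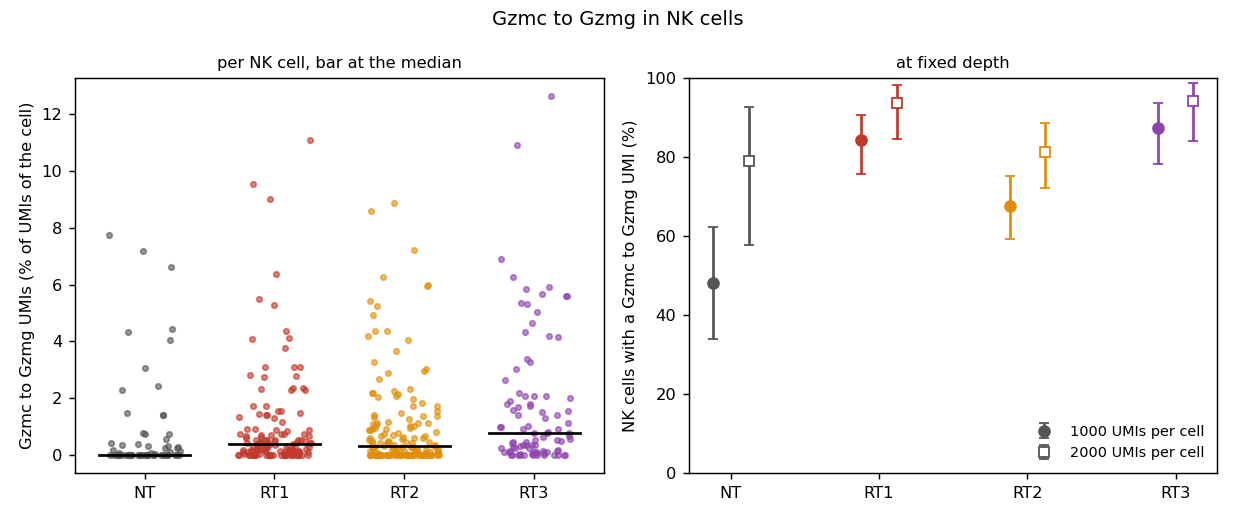
Left, percentage of the UMIs of each NK cell that came from Gzmc to Gzmg (y axis) in NT, RT1, RT2 and RT3, 1 point a cell, with the median as a bar. Right, percentage of NK cells with at least 1 such UMI after thinning to 1000 or 2000 UMIs, with exact 95% intervals. The medians are 0% in NT and 0.310 to 0.779% in RT, and the gap in the share of cells at 1000 UMIs narrows at 2000.

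Single granzymes did not move together. Gzmb, which cleaves caspases in the target, stood at 9079 CPM in NT and at 8116, 8443 and 10425 in the RT libraries, with NT inside the RT range. Gzmc stood at 4835, 4400, 4401 and 5983 CPM, and Gzmd at 7723, 3765, 5173 and 9076, again with NT inside. With each barcode weighted equally, NT lay below every RT library for Gzmb, Gzmc and Gzmd. Gzmb then stood at 5380 in NT and 7275, 7575 and 8677 in RT. Gzmc stood at 2759 and 3586, 3653 and 5153, and Gzmd at 2346 and 2449, 3117 and 5614. Gzmg stood at 5320 CPM in NT and 1519, 1442 and 3713 in RT, below NT in all 3, although 390 of the 965 UMIs in NT came from 1 cell, and RT3 lay above NT with each barcode weighted equally (1670 against 1393). Read in single cells at 1000 UMIs, Gzma was found in 63.5%, 79.4%, 79.9% and 58.8% of cells and Prf1 in 34.6%, 66.7%, 59.7% and 73.8%. The Prf1 share was lowest in NT while its summed level was highest there, so no order is read from it either.

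RT was compared with NT across genes by a rule of size, because NT was 1 library. Among 2931 genes with a mean of at least 50 CPM over the 4 libraries, a gene was called higher in RT when log2 of (CPM RT + 10)/(CPM NT + 10) was at least 1 in each RT library, and lower when it was at most −1 in each. The rule called 52 genes higher (1.77%) and 22 lower (0.751%). All 3 RT libraries lay above NT for 849 genes (29%) and below for 1052 (35.9%). The median log2 ratio of all 2931 genes was −0.06, and 0.07 with TMM scaling. Without the deepest 8% of barcodes 85 genes were higher and 38 lower, of which 41 and 13 were among the first, and NT then rests on fewer UMIs still. Errors of log2 ratios are the SD over the 3 RT libraries and hold nothing of the spread between control tumors. Because the filter was on the mean of the 4 libraries, a gene could pass it through the group in which it was high, which favored its call. Among genes named below this was so for Tnfsf4, Il12rb1, Zmat3, Ccnb2, Ube2c, Cmc2, Capg, Erh, Dpf2 and Ier3, which were under 50 CPM in NT, and for Cxcl9, Dsc2, Scin and Anxa3, which were under it in every RT library. Counts over the tested members of a list hold such genes and are descriptions, to be read beside the shares of all genes just given.

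Of the p53 target genes, Cdkn1a, Mdm2 and Zmat3 were called higher in RT NK cells. Cdkn1a, the cyclin-dependent kinase inhibitor p21, stood at 121 CPM in NT and 464, 510 and 376 in the RT libraries. Mdm2, the ubiquitin ligase that degrades p53, stood at 88.2 CPM in NT and 336, 289 and 364 in RT. For both genes every RT library lay at least 3-fold above NT, with mean log2 ratios of 1.80 ± 0.22 (SD, n = 3) for Cdkn1a and 1.79 ± 0.16 (SD, n = 3) for Mdm2, or 2.52 and 1.82 with each barcode weighted equally.
Zmat3, a p53 target that binds RNA, had 3 UMIs in NT (16.5 CPM, exact Poisson interval 3.41 to 48.3) and 65.4, 44.2 and 78.3 CPM in RT. Of 18 p53 targets, 10 passed the filter on level, 3 were called higher and none lower, 7 lay above NT in all RT libraries and 1 below, and their median log2 ratio was 0.70, where 1.77% of all genes tested were called higher and 29% lay above. Besides Zmat3, Bbc3 (27.6 CPM in NT and 68.5, 50.3 and 63.2 in RT) reached the filter through RT. The other 8 were under the filter. With each barcode weighted equally the median was 0.82, and without the deepest barcodes 0.96, and Ccng1, another p53 target, was past the rule under equal weighting (1.29, 1.00 and 1.24).

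The same targets were read in the other populations. In T cells Cdkn1a stood at 83.6 CPM in NT and 501, 663 and 571 in RT, and 6 of 10 targets lay above NT in every RT library with a median of 1.12, where 649 of all 3188 genes did. In macrophages Cdkn1a stood at 312 CPM and 1234, 1804 and 1143, and 4 of 8 targets lay above NT with a median of 0.29, where 856 of all 2783 genes did. Tumor cells had 19.3 CPM of Cdkn1a in NT and 47.9, 46.1 and 35.8 in RT, but of the 3 targets over the filter there 1 lay above NT and 2 below, with a median of −0.11, where 807 of all 3223 genes lay above and 1315 below. Cdkn1a was thus higher in every RT library than in NT in all 4 populations.

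Stress and early activation genes leaned the other way. Nr4a3, an orphan nuclear receptor gene induced by receptor signaling, stood at 546 CPM in NT (exact Poisson interval 443.6 to 664) and 162, 154 and 208 in the RT libraries, a log2 ratio of −1.60 ± 0.22 (SD, n = 3). Its relative Nr4a1 stood at 1924 CPM in NT and 815, 933 and 551 in RT, a log2 ratio of −1.35 ± 0.39 (SD, n = 3), which with equal weighting of barcodes was −0.88 in RT2 and so no longer met the rule there. In T cells Nr4a3 stood at 334, 370, 256 and 238 CPM and did not separate NT from RT. The heat shock gene Hspa1a stood at 3330 CPM in NT and 1288, 1867 and 1259 in RT, and Junb, an AP-1 subunit, at 1312 and 744, 1010 and 467. All 18 immediate early and heat shock genes passed the filter, 2 of them (Nr4a1 and Nr4a3) were called lower, 10 lay below NT in every RT library (35.9% of all genes tested did), none lay above, and the median log2 ratio was −0.46. With each barcode weighted equally Hspa1a was past the rule too (−1.49, −1.15 and −1.34). The list's median was 0.04 in T cells, −0.32 in macrophages and −0.23 in tumor cells. Fos did not follow, at 1852 CPM in NT and 3296, 2095 and 970 in RT.

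Cycling genes gave no stable picture. Of 16 cycling genes tested among 18, Ccnb2 (22.1 CPM in NT and 74.7, 68.5 and 75.3 in RT) and Ube2c (27.6 and 80.9, 131 and 90.3) were called higher (1.77% of all genes were), and 10 lay above NT in every RT library (29% of all genes did). With each barcode weighted equally, neither was past the rule in all 3 (the lowest log2 ratios were 0.94 for Ccnb2 and 0.77 for Ube2c), whereas Mcm5, a replication licensing gene, was past it (1.48, 1.16 and 1.47). The median log2 ratio of 0.50 became 0.09 with each barcode weighted equally and −0.27 without the deepest barcodes. At 1000 UMIs, 50%, 56.9%, 56.1% and 63.8% of NK cells had at least 2 UMIs of the list, against 27.3 to 48.7% of macrophages, 54.1 to 70.6% of T cells and 53.9 to 70.1% of tumor cells over the libraries.

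**Figure D3:**
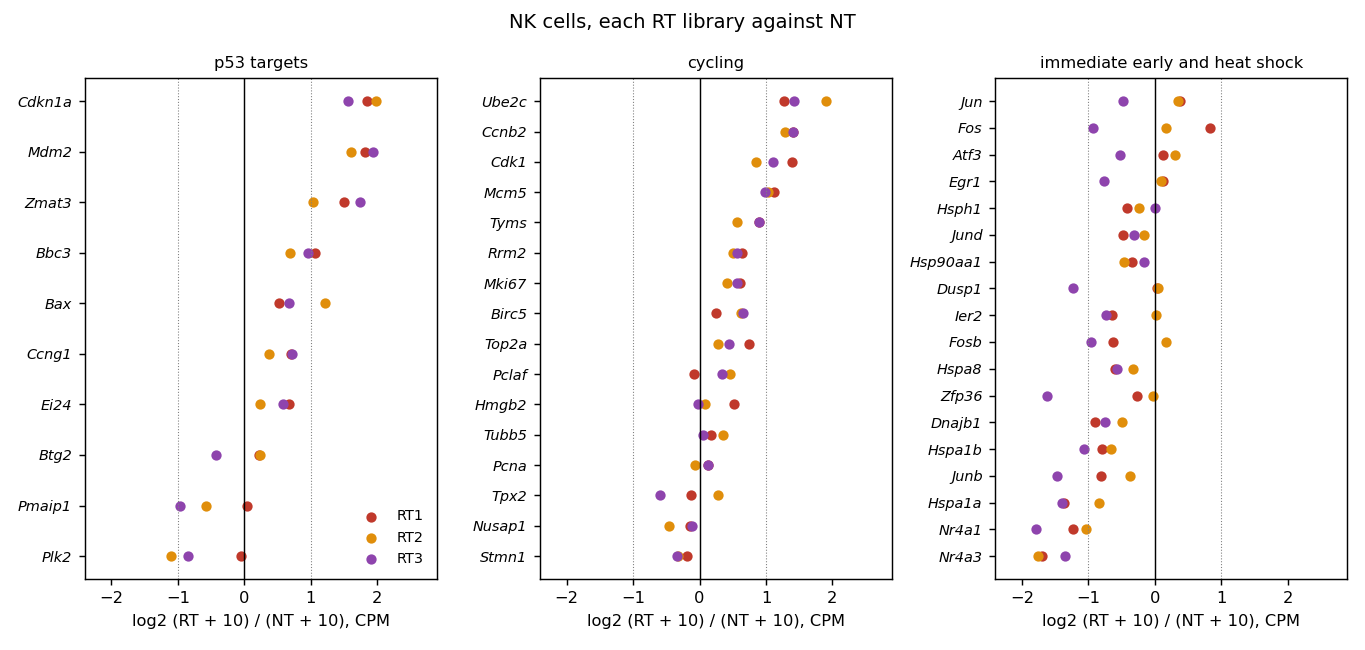
Log2 ratio of each RT library over NT (x axis, 10 CPM added) for the tested genes of the p53 target, cycling and immediate early and heat shock lists (y axis, 1 row a gene), with RT1, RT2 and RT3 as separate points and dotted lines at the ratios of the rule of size, −1 and 1. Cdkn1a, Mdm2 and Zmat3 lie right of 1 in all RT libraries, and Nr4a1 and Nr4a3 lie left of −1.

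Ly6a, Tnfsf4 and Serpine2 were among the other genes called higher. Ly6a, the GPI-linked antigen Sca-1, stood at 82.7 CPM in NT and 498, 410 and 572 in the RT libraries, a log2 ratio of 2.43 ± 0.24 (SD, n = 3). T cells had 474 CPM of Ly6a in NT and 1046, 655 and 903 in RT, macrophages 966 and 509, 1075 and 973, and tumor cells 465 and 805, 1293 and 921. Serpine2, a secreted serine protease inhibitor, stood at 66.2 CPM in NT (12 UMIs, 9 of them in 1 cell) and 314, 349 and 527 in RT, a log2 ratio of 2.38 ± 0.38 (SD, n = 3) that was 3.80 without the deepest barcodes. It was carried by T cells as well, at 51.1 CPM in NT and 370, 370 and 770 in RT, and was at most 1.39 CPM in macrophages.
Tnfsf4, the costimulatory ligand OX40L, had 2 UMIs in NT (11.0 CPM, exact Poisson interval 1.34 to 39.8) and stood at 174, 80.7 and 111 CPM in RT, while macrophages had at most 3.05 CPM and tumor cells at most 0.232. T cells carried it at 65.0 CPM in NT and 294, 81.6 and 171 in RT. Il12rb1, a chain of the interleukin 12 receptor, had 4 UMIs in NT (22.1 CPM) and stood at 84.0, 74.6 and 111 CPM in RT, a log2 ratio of 1.62 ± 0.27 (SD, n = 3), with 0.89 as its lowest ratio under equal weighting of barcodes. Tnfsf4, Serpine2 and Il12rb1 were among the 19 of the 52 higher genes whose mean level in NK cells was at least that in macrophages and tumor cells, as it was for 1291 of all 2931 genes tested.

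Several genes called higher were housekeeping genes that differed in every population. Rpl9, a ribosomal protein gene, stood at 865 CPM in NT and 3728, 3285 and 2825 in RT, with log2 ratios of 1.90 in NK cells, 1.41 in T cells, 1.24 in macrophages and 1.77 in tumor cells. Mrpl33, a mitochondrial ribosomal gene, had log2 ratios of 1.61, 1.73, 1.31 and 1.77 in the same order, and Atp5g1, an ATP synthase subunit, 1.77, 1.37, 0.72 and 1.56. S100a11, a calcium-binding protein gene, stood at 347 CPM in NT and 1189, 1005 and 1189 in RT and had log2 ratios of 1.67, 1.22, 1.54 and 1.15. As NT was 1 library, a difference between libraries and a difference between treatments cannot be told apart for these genes or for any other gene here. Cmc2, Capg, Erh and Dpf2 had 2 UMIs each in NT (11.0 CPM, 1.34 to 39.8) and Ier3 had 3, so no fold is given for them.

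Most of the genes called lower by the widest margin rested on few NT cells. Cxcl9, an interferon-induced chemokine, stood at 221 CPM in NT and 3.11, 13.7 and 0 in RT, but its 40 UMIs in NT lay in 3 cells, 26 of them in 1. The MHC class II genes H2-Aa (761 CPM in NT and 59.1, 79.2 and 51.2 in RT), H2-Ab1 (739 and 28, 122 and 21.1) and H2-Eb1 (496 and 37.3, 73.1 and 21.1) had 92 of 138, 98 of 134 and 72 of 90 NT UMIs in 1 cell each. Without barcodes holding 3 or more UMIs of the dendritic cell and macrophage lists, their mean log2 ratios shrank to −0.52, −0.37 and −0.76, and that of Cxcl9 turned to 0.38. H2-Aa and H2-Ab1 are members of the dendritic cell list, so for these 2 genes the removal itself lowers the NT level. Il1b had 37 of its 39 NT UMIs in 1 cell. Dsc2, a desmosomal cadherin gene, stood at 176 CPM in NT (32 UMIs in 5 cells) and 9.34, 10.7 and 6.02 in RT, a log2 ratio of −3.33 that was −1.34 without the deepest barcodes. Scin, Tmsb15a and Anxa3 were lower in RT when all cells were summed (log2 ratios of −2.89, −1.97 and −1.56) and higher without the deepest barcodes (0.80, 0.44 and 1.69). Nr4a3 was lower in RT without either set of barcodes (−1.32 without the myeloid-marker barcodes and −1.86 without the deepest). Cyp51, an enzyme of sterol synthesis, was lower in RT in NK cells (237 CPM in NT and 93.4, 39.6 and 72.3 in RT) and also in T cells (283 and 32.7, 68.0 and 76.1), macrophages (146 and 62.7, 52.7 and 47.1) and tumor cells (265 and 90.2, 48.9 and 92.6).

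In the summed levels, cytotoxic genes as a group did not separate NT from RT. Of 17 granule genes, 15 were tested, none passed the rule of size, 3 lay above NT in every RT library and 5 below (29% and 35.9% of all genes), and the median log2 ratio was −0.02, or 0.41 with each barcode weighted equally and 0.67 without the deepest barcodes. Nkg7, a granule membrane protein, stood at 937 CPM in NT and 1749, 1719 and 1235 in RT, and Lamp1, a marker of the granule membrane, at 132 and 230, 207 and 244. Serpinb9, which protects the killer cell from its own granzyme B, stood at 843 CPM and 1064, 926 and 1036. With each barcode weighted equally, Gzmb, Gzmc, Gzmd, Gzmf, Prf1, Nkg7, Serpinb9 and Lamp1 lay above NT in every RT library. Srgn and Ctsc lay below NT in every RT library under that weighting.

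No receptor for targets passed the rule of size in the summed levels, and the 4 gate genes are members of these lists. Of 17 activating and adhesion receptors, 11 were tested, with a median log2 ratio of −0.01. Of 15 inhibitory and other lectin-like receptors found in the tables, 11 were tested, 5 lay below NT in every RT library (35.9% of all genes did) and the median was −0.39. Among them Klrb1b stood at 656 CPM in NT and 358, 391 and 431 in RT, and Klrc1, which encodes NKG2A, at 408 and 261, 257 and 220. With each barcode weighted equally Klrc1 was past the rule, with log2 ratios of −1.21, −1.06 and −1.33. Single Klra genes share sequence, with 18.6% of the end windows of Klra3 and 20.9% of those of Klra9 found in another family member, and their separate levels are uncertain. Of 15 adaptors and proximal kinases, 9 were tested and none passed. Tyrobp (DAP12) lay above NT, at 309 CPM in NT and 526, 804 and 473 in RT, and Fcer1g, the partner of NKp46, below it, at 3142 and 1908, 1919 and 1759. Sh2d1b1, an adaptor of SLAM receptors, was under the filter on level and at 0 in NT, where 3 UMIs, taken as the floor of a count of 0, are 16.5 CPM, and at 68.5, 64.0 and 39.1 CPM in RT, at least 4.14-, 3.87- and 2.37-fold higher.

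No gene of the checkpoint list, which also holds costimulatory receptors and the enzyme gene Entpd1, passed the rule of size. The 6 of the 13 that passed the filter all lay below NT in every RT library, as 35.9% of all genes tested did, and the median log2 ratio was −0.67. Tnfrsf9, the costimulatory receptor 4-1BB, stood at 1516 CPM in NT and 874, 863 and 988 in RT, and Havcr2 (TIM-3) at 198 and 46.7, 74.6 and 166. The median became −0.12 with barcodes weighted equally and 0.00 without the deepest barcodes. Under equal weighting RT3 lay above NT for Tnfrsf9 (909 against 873) and Havcr2 (99.9 against 58.0), while RT1 and RT2 lay below NT for both.

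Of 14 cytokine, chemokine and death ligand genes, 7 were tested and only Ccl3 passed, at 502 CPM in NT and 224, 241 and 63.2 in RT, a call lost with each barcode weighted equally (log2 ratios of −0.69, −0.25 and −2.84). Ifng did not separate the groups, at 276, 383, 277 and 151 CPM. Of 14 migration genes, 7 were tested and only Cxcr4, the receptor for Cxcl12, passed, at 391 CPM in NT and 112, 168 and 72.3 in RT, a log2 ratio of −1.73 ± 0.55 (SD, n = 3) whose smallest size was −0.96 in RT2 with equal weighting, while T cells had 302 and 490, 595 and 152. Of 17 glycolysis and hypoxia genes, 12 were tested and only Vegfa passed, at 281 CPM in NT and 131, 97.5 and 108 in RT, and the median was −0.08. Of 22 interferon response genes, 10 were tested and none passed, with a median of −0.19. None of the 10 lay above NT in every RT library and 5 lay below, against 29% and 35.9% of all genes.

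No lineage factor passed the rule in the summed levels. Of 17 NK transcription factors, 13 were tested, 3 lay above NT in every RT library and 6 below (29% and 35.9% of all genes), and the median log2 ratio was −0.14. Nfil3, needed for NK cell development, stood at 143 CPM in NT and 299, 292 and 268 in RT, a log2 ratio of 0.95 ± 0.08 (SD, n = 3) that came just short of the rule, and with each barcode weighted equally its log2 ratios of 1.77, 1.21 and 1.16 were past it. Of the 10 tested MHC class I presentation genes none passed, with a median of 0.12. Klrg1, a receptor of mature NK cells, stood at 507 CPM in NT and 302, 302 and 373 in RT, an order that turned with each barcode weighted equally (152 in NT and 198, 175 and 202 in RT). Cd69, a retention and early activation antigen, stood at 584 and 1055, 777 and 696. None of the 10 tested cytokine receptor genes but Il12rb1 passed (median −0.02), nor did any of 10 growth and amino acid uptake genes (median −0.19) or of 9 tested survival and apoptosis genes (median −0.08). None of the 6 tested genes of circulating mature NK cells and of the 4 tested residency genes passed the rule.

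The cells were then compared with one another inside each library, which does allow a test. UMIs were summed over NK cells with at least 1 Gzmc to Gzmg UMI and over those with none, 30 and 32 cells in NT, 101 and 27 in RT1, 105 and 44 in RT2 and 77 and 12 in RT3, and the sums were compared by edgeR's quasi-likelihood test with the library as a block and Benjamini-Hochberg adjustment. The 5 granzymes were left out. Cells with these granzymes were deeper, with median UMIs of 2802.5 against 1437 in NT, 2214 against 982, 4168 against 1695 and 3402 against 1344. Of 1797 genes tested, 32 were higher (1.78%) and 85 lower (4.73%) in cells with Gzmc to Gzmg. When every cell was first thinned to 1000 UMIs, 8 and 20 of 555 genes were called, 7 and all 20 of them among the first. The 4 libraries are the replicates here, and single cells are not.

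Cells with Gzmc to Gzmg held more Gzmb, Prf1 and Klrg1, and most other granule genes tested did not pass. Klrg1 stood at 733 CPM with and 54.2 without these granzymes in NT, 344 and 26.8 in RT1, 342 and 125 in RT2 and 406 and 0 in RT3. It was higher in every library, with a log2 difference of 2.48 ± 0.40 (SE) and an adjusted p of 0.000745 by edgeR. Gzmb stood at 12775 CPM with and 1716 without in NT, 8773 and 4262 in RT1, 8889 and 7045 in RT2 and 11068 and 4588 in RT3, a log2 difference of 1.30 ± 0.25 (SE, adjusted p = 0.00482 by edgeR). Prf1 was higher in the same direction in 4 of 4 libraries (0.88 ± 0.25, adjusted p = 0.0464 by edgeR), and Gzma did not pass (0.29 ± 0.13, adjusted p = 0.230 by edgeR). Of 9 granule genes tested, 3 were higher and none lower (1.78% and 4.73% of all genes tested). Their median log2 difference was 0.29 against 0.03 over all genes tested. The third was Serpinb6b, an intracellular serpin. Tnfrsf9 was higher as well (1.22 ± 0.26, adjusted p = 0.0077 by edgeR).

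Genes outside the cytotoxic list led the higher calls. Spp1, which encodes the secreted phosphoprotein osteopontin, stood at 4749 CPM with and 542 without in NT, 3153 and 643 in RT1, 2175 and 854 in RT2 and 5416 and 287 in RT3, a log2 difference of 2.40 ± 0.28 (SE, adjusted p = 5.12e-05 by edgeR). The macrophage and monocyte list is given for the same split below. Serpinb6a (2.54 ± 0.35), Cd55, a complement regulator (2.74 ± 0.58), and the metallothioneins Mt1 (1.70 ± 0.27) and Mt2 (2.01 ± 0.31) were also higher.

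Cells without Gzmc to Gzmg held more transcripts of cytokines and chemokines. Ccl5 stood at 90.5 CPM with and 1842 without in NT, 469 and 2359 in RT1, 316 and 2918 in RT2 and 291 and 2351 in RT3, a log2 difference of −3.11 ± 0.24 (SE, adjusted p = 1.05e-06 by edgeR). Ifng, the main cytokine of NK cells, stood at 90.5 and 704, 308 and 992, 185 and 787, and 134 and 516 CPM, lower with the granzymes in all 4 libraries (−2.13 ± 0.24, adjusted p = 4.07e-05 by edgeR). All 6 tested genes of the cytokine, chemokine and death ligand list were lower (4.73% of all genes tested were), with a median of −2.13. Besides Ccl5 and Ifng these were Ccl3 (−3.17), Ccl4 (−2.13), Tnf (−1.36) and Xcl1 (−0.72). Ccl3 was not lower in RT3, at 65.5 CPM with (20 UMIs) and 57.4 without. The latter is 1 UMI among the 17437 of 12 cells, so no order is read from RT3.

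The cells without these granzymes also held more interferon-induced and early activation transcripts. Cxcl10 stood at 519 CPM with and 3955 without in NT, 2518 and 6808 in RT1, 1028 and 2668 in RT2 and 1417 and 8545 in RT3 (−2.06 ± 0.21, adjusted p = 1.99e-05 by edgeR). Of 5 interferon response genes tested, 4 were lower with the granzymes and none higher (4.73% and 1.78% of all genes tested). Among them were Rsad2 (−2.43 ± 0.31) and Isg15 (−1.45), and the list median was −1.45. Of 18 immediate early and heat shock genes, 10 were lower and none higher (4.73% and 1.78% of all genes tested), with a median of −0.85. Fos (−1.79 ± 0.22) and Nr4a1 (−1.45 ± 0.20) were among them. Cxcr4 was lower (−2.39 ± 0.29, adjusted p = 9.5e-05 by edgeR), at 165 and 921 CPM in NT, 100 and 214 in RT1, 81.3 and 634 in RT2 and 65.5 and 229 in RT3. Klf2, a factor of quiescent and circulating lymphocytes, was lower too (−1.47 ± 0.21). Of 10 MHC class I genes 4 were lower (4.73% of all genes tested were), H2-Q7 and H2-K1 among them. No cycling gene of 11 and no glycolysis or hypoxia gene of 10 passed.

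Genes listed for other cell types moved with this split. The dendritic cell list summed to 57.6 CPM with and 5219 without the granzymes in NT, 89.6 and 134 in RT1, 59.1 and 1094 in RT2 and 72.0 and 516 in RT3, and the macrophage and monocyte list to 82.3 and 1716, 236 and 214, 316 and 557, and 118 and 229. Lyz2 was lower with the granzymes (−1.80, adjusted p = 0.0439 by edgeR). The mast cell and basophil list, led by Mcpt8, summed to 57.6, 21.5, 177 and 94.9 CPM with the granzymes and to 0 without in all 4 libraries. The tumor cell list summed to 74.1 CPM with and 181 without in NT, 100 and 134 in RT1, 59.1 and 134 in RT2 and 78.5 and 229 in RT3, and the neutrophil list in RT2 to 35.1 and 634. The endothelial list was higher with the granzymes, at 115 and 36.1, 158 and 107, 163 and 48.0, and 124 and 0 CPM, and Pecam1, its leading gene, was called higher (1.58). With the granzymes, 3 of its 4 genes were at 0 in every library. The list was thus Pecam1 alone on that side and does not show endothelial cells. The part of the mast cell, tumor cell, neutrophil and endothelial lists in the calls was not tested. For the dendritic cell and macrophage lists alone, the comparison was repeated without barcodes holding 3 or more of their UMIs. It called 19 genes higher and 46 lower of 1582, of which 18 and 46 were among the first. Ccl5 (−2.99), Ccl3 (−3.04), Ifng (−2.12), Ccl4 (−1.90), Cxcl10 (−1.80), Rsad2 (−1.79) and Cxcr4 (−2.18) stayed lower, and Klrg1 (2.44) and Spp1 (2.26) stayed higher, all past the threshold.

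A second split used markers of maturation. NK cells with at least 1 UMI of Itgam, S1pr5, Klrg1 or Cx3cr1, mostly of Klrg1, were compared in the same way with cells with none, 18 and 44 cells in NT, 34 and 94 in RT1, 59 and 90 in RT2 and 30 and 59 in RT3. They too were deeper, with median UMIs of 3780 against 1468.5, 3337 against 1702, 4785 against 2060.5 and 5964.5 against 1800. Of 2456 genes tested, 37 were higher (1.51%) and 102 lower (4.15%) in the cells with these markers. When every cell was first thinned to 1000 UMIs, 14 and 16 of 552 genes were called, 9 and 14 of them among the first. Of 5 tested genes of the circulating mature NK list, 1 was higher and 2 lower in this split, with a median log2 difference of −0.79. The cells are therefore named by the split genes alone. The splits share cells, and Klrg1 defines one and was called in the other, so they are no independent support of each other.

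The granzymes were not used in this split and were tested singly, with the split of UMIs between Gzmd, Gzme, Gzmf and Gzmg as uncertain as before. Gzmg stood at 9705 CPM with and 24.4 without the maturation markers in NT, 2871 and 529 in RT1, 2248 and 296 in RT2 and 6031 and 46.7 in RT3, a log2 difference of 4.19 ± 0.58 (SE, adjusted p = 0.000532 by edgeR). In NT these were 963 UMIs with the markers and 2 without, and 1 cell held many of them, as given above. Neither split was repeated without the deepest barcodes. Gzmd (2.65 ± 0.42), Gzme (2.68 ± 0.38) and Gzmf (2.43 ± 0.52) were higher in all 4 libraries, and Gzmc did not pass (0.67 ± 0.20, adjusted p = 0.0678 by edgeR). Gzma and Gzmb differed less, by 0.51 ± 0.10 and 0.56 ± 0.13 (SE), and passed. Of 15 granule genes 6 were higher and none lower (1.51% and 4.15% of all genes tested), with a median of 0.51 against 0.02 over all genes.

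Havcr2 and Entpd1, genes of the checkpoint list, were higher in cells with maturation markers. Havcr2 stood at 363 CPM with and 0 without in NT, 81.0 and 21.6 in RT1, 98.5 and 40.6 in RT2 and 236 and 54.5 in RT3 (2.18 ± 0.42, adjusted p = 0.00456 by edgeR). Entpd1, the ectonucleotidase CD39 and so an enzyme, was higher (2.49 ± 0.40). Of the 6 tested genes of the checkpoint list these 2 passed (1.51% of all genes tested were higher). Epas1, the hypoxia-inducible factor HIF-2 alpha, was higher by 3.09 ± 0.42 (SE, adjusted p = 0.000517 by edgeR) and Ifitm1 by 3.25 ± 0.28. Of the 161 Ifitm1 UMIs in NT, 64 came from 1 cell. None of the 11 tested genes of the glycolysis and hypoxia list passed.

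Xcl1, the chemokine that attracts cross-presenting dendritic cells, was lower in the cells with maturation markers. It stood at 161 CPM with and 890 without in NT, 133 and 906 in RT1, 98.5 and 610 in RT2 and 63.9 and 794 in RT3, with no overlap between the 2 sides (−2.86 ± 0.20, adjusted p = 1.15e-06 by edgeR). Of 7 tested cytokine, chemokine and death ligand genes 6 were lower (4.15% of all genes tested were), Ccl5 (−1.73 ± 0.15) and Tnf (−2.00 ± 0.26) among them. Only Fasl did not pass (−0.50, adjusted p = 0.438 by edgeR). Of 8 interferon response genes 5 were lower with a median of −1.89, and of 18 immediate early and heat shock genes 14 were lower with a median of −0.97, against 4.15% of all genes tested. Klf2 (−0.79) and Klrc1 (−0.90) were lower as well. No cycling gene of 16 passed.

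The dendritic cell list again moved with the split, at 726 CPM with and 2729 without in NT, 36.8 and 135 in RT1, 83.0 and 421 in RT2 and 19.7 and 210 in RT3, and the macrophage and monocyte list at 181 and 1060, 199 and 253, 283 and 443, and 98.3 and 156. The mast cell and basophil list summed to 70.5 and 0, 29.5 and 10.8, 194 and 77.6, and 138 and 7.78, and the tumor cell list to 40.3 and 183, 88.4 and 113, 67.4 and 73.9, and 63.9 and 117. The endothelial list summed to 141 and 24.4, 206 and 108, 166 and 107, and 157 and 46.7, with Pecam1 called higher (1.09). With the markers, 3 of its 4 genes were at 0 in every library. The part of these 3 lists in the calls was not tested. Without barcodes holding 3 or more UMIs of the dendritic cell and macrophage lists, 40 genes were higher and 91 lower of 2264, of which 29 and 82 were among the first.

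**Figure D4:**
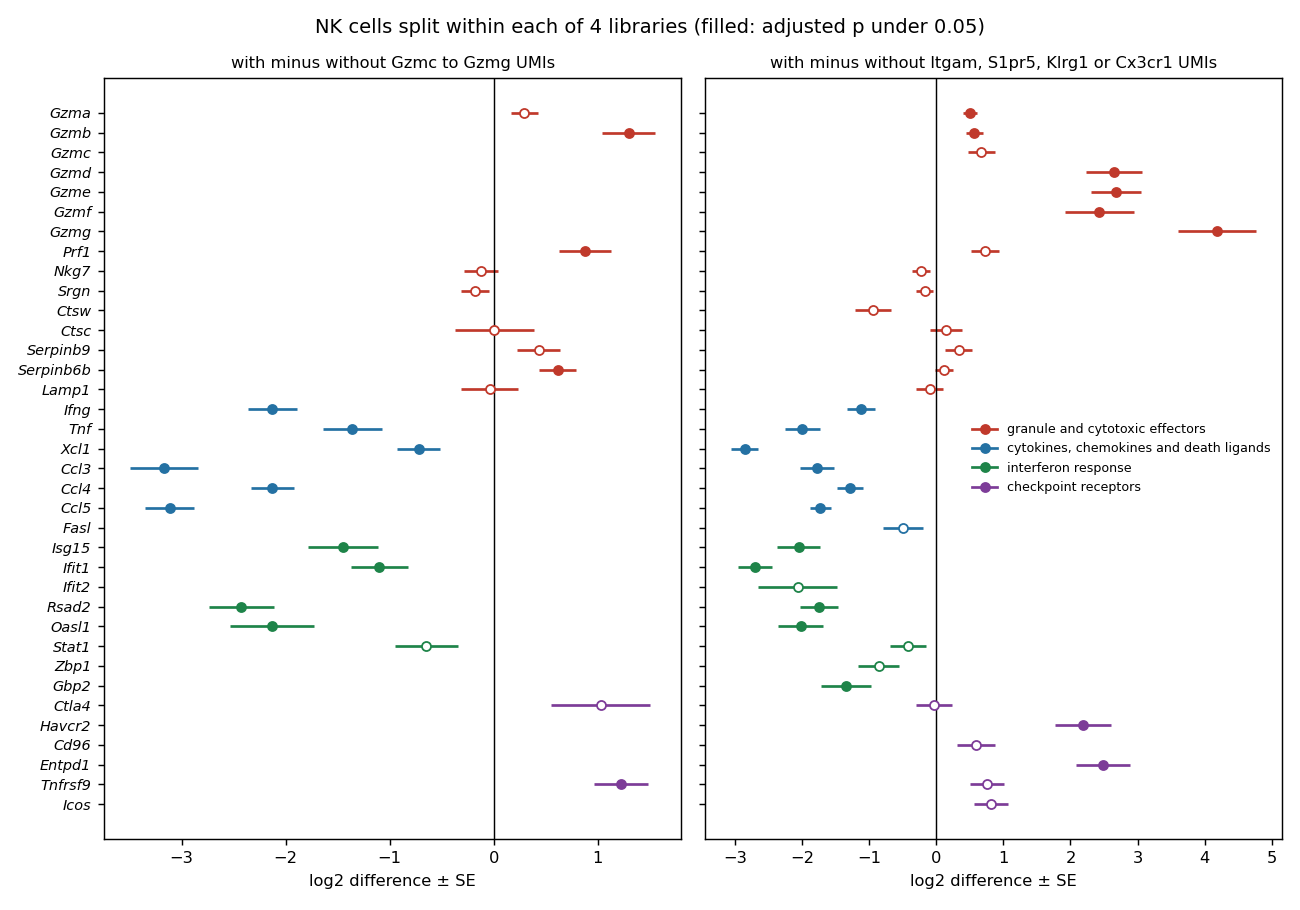
Log2 difference (x axis) with its SE for the tested genes of 4 lists (rows), for NK cells with against without a Gzmc to Gzmg UMI on the left and with against without a maturation UMI on the right, with filled points for an edgeR adjusted p under 0.05. The cytokine and chemokine genes lie left of 0 in both panels with medians of −2.13 and −1.73, and the granule genes that passed lie right of 0.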

How the data were processed

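Single cells of 4 LLC tumor libraries were prepared by the authors with the SeekOne MM kit and processed with SeekOne Tools. The submitters' processing notes also name Cell Ranger, STAR 2.5.1b, Subread 1.6.4, featureCounts and the builds GRCm39 and mm39, with no role given. The authors deposited UMI counts per gene and called barcode, as whole numbers without normalization. How reads on near-identical copies were split is not given in the sources used here. Tables were joined on gene symbols. No doublet caller was run, and the gate itself removed barcodes with Cd3 genes, Csf1r or more than 1 Rhox5 UMI.

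Shares have exact Clopper-Pearson and sums exact Poisson intervals at 95%, for counting error only. UMIs were summed per library and expressed as CPM. NT was 1 library, so RT and NT were compared by a rule of size (pseudocount 10 CPM, mean of at least 50 CPM) with no p-value. NK cells split within libraries were tested with edgeR 4.0.16 (R 4.3.3; quasi-likelihood, TMM, filterByExpr, library as a block, Benjamini-Hochberg, threshold 0.05) on sums, and the errors given are SE of the log2 difference. DESeq2 1.42.0 was an alternative. The procedure was tested on simulated data. Shares at fixed depth came from thinning without replacement (seed 1). Named genes were those with the largest smallest ratio over the RT libraries (12 per direction, over all genes and over genes held by NK cells), those with the largest differences in each split, and members of 31 gene lists. The members, lists and tests were chosen with earlier results of these data known. Values of some list members are not reported here.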

Additional observations from a re-analysis of the deposited data

How the results depend on the processing

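With 1 NT library and 3 RT libraries, depth and the few deep barcodes of NT limit every comparison of RT with NT. No paired analysis was possible because NT was 1 library and shared only 1 replicate number with RT. The cause of the shifts below was not tested except where the setting removes cells or genes.

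The RT minus NT difference in the NK share of Ptprc barcodes was −1.71 percentage points, −1.05 with a gate minimum of 3 UMIs and 0.0866 with the gate read after thinning to 2000 UMIs. The difference in the Gzmc to Gzmg share was 31.7 points and 10.6 at 2000 UMIs, and that in the cycling share was 8.91 and 2.78 without the deepest 8%. Leaving out 1 RT library at a time gave 0.10 to 0.301 points for the share of all barcodes, −1.98 to −1.54 for Ptprc barcodes, 19.6 to 28.6 for NK and T cells, 27.9 to 37.8 for Gzmc to Gzmg and 6.49 to 10.3 for cycling.

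The counts of genes higher and lower in RT (52 and 22) became 85 and 38 without the deepest 8%, 17 and 14 with a pseudocount of 50 CPM, 20 and 12 with a filter at 100 CPM, and 226 and 155 with no filter. TMM scaling gave 71 and 12, and scaling without mitochondrial and ribosomal protein genes gave 86 higher. Leaving out 1 RT library gave 60 to 93 higher and 35 to 44 lower. The rule is easier to meet with fewer libraries, so this rise says little about stability. Of the first genes, 46 to 50 of the 52 and all 22 were called again. Chosen after seeing the data, equal weighting gave 90 and 39 (32 and 9 shared), and removal of barcodes with myeloid markers gave 69 and 14 (43 and 11 shared).

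For cells with Gzmc to Gzmg, the counts (32 and 85) became 16 and 55 with DESeq2, 13 and 40 with no library block, 8 and 20 after thinning and 19 and 46 without myeloid-marker barcodes (added after seeing the data). With no filter they were 110 and 59, and 54 were lower with no Rhox5 UMI allowed. Leaving out 1 library gave 21 to 32 higher and 34 to 92 lower, the lowest without RT2. For cells with maturation markers, the counts (37 and 102) became 18 and 58 with DESeq2, 67 higher with no filter, 18 and 42 with no library block and 14 and 16 after thinning, and leaving out 1 library gave 14 to 44 higher and 64 to 120 lower, with 14 and 64 without RT3 and 26 and 64 without RT2.

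Among single genes, 853 values held (split differences kept direction and threshold, and RT over NT ratios moved by less than the SD of the RT libraries), 95 RT over NT ratios moved by more, 27 split differences lost the threshold and 4 ratios reversed. The reversed were Anxa3 (1.69), Scin (0.80) and Tmsb15a (0.44) without the deepest 8%, and Cxcl9 (0.38) without myeloid-marker barcodes.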

Other observations

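Ly49 receptors, which NK cells are known to express in variegated combinations, were counted per cell over 7 genes. After thinning to 1000 UMIs, none of the 7 was found in 53.8% of NK cells in NT, 35.3% in RT1, 53.2% in RT2 and 51.3% in RT3. At least 2 of them were found in 17.3% of cells in NT and in 27.5%, 12.9% and 18.8% in RT. RT1 was the library with the lowest share of cells lacking a detected Ly49 gene. Klra genes share transcript ends, so these counts are of detected symbols and not of receptors.

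Some barcodes carried NK genes but fell outside the rule. With at least 2 UMIs of the gate genes, 20 barcodes of NT and 11, 50 and 15 of the RT libraries held a Cd3 UMI, 0, 8, 10 and 2 held a Csf1r UMI, and 6, 14, 11 and 12 held more than 1 Rhox5 UMI. Whether the first are NK-like T cells, doublets or NK cells with Cd3 transcripts was not tested.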
